A study of Mus musculus with 9 samples.

Results

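Amino acid transporters are membrane proteins that carry amino acids, and in some families related amines, into, out of and within cells. The members were the rows of the count table whose symbol belongs to the Slc1, Slc3, Slc6, Slc7, Slc36, Slc38 or Slc43 family, 59 of 23366 genes, chosen by symbol alone. They were compared between Sirt6 knockout cells (labelled SIRT6-Knock Out, 3 libraries) and wild-type cells (3 libraries). SIRT6 is a histone deacetylase, and the series title ties it to the pausing of transcription near promoters. All 6 libraries came from mouse embryonic stem cells of the 129 SvJae F1 strain at passage 21, cultured in DMEM with 10% serum, LIF, glutamine, antibiotics and beta-mercaptoethanol. The knockout carries a loss of Sirt6, and no other allele is labelled. How many clones each genotype stands for, and whether replicates were separate cultures, the labels leave unsaid, so the p-values measure the spread between these libraries, which may be technical. The series lists 9 samples in 3 groups, and the glucose-deprived wild-type group was not analysed here.

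The families work as a system. Slc7 light chains reach the cell surface only when joined to a heavy chain of the Slc3 family: SLC3A2 (CD98) with SLC7A5 exchanges large neutral amino acids such as leucine for glutamine, and with SLC7A11 it exchanges cystine for glutamate. Sodium-coupled carriers of the Slc1 and Slc38 families load the cell with glutamine, alanine and serine, Slc7a1 and Slc7a3 carry arginine and lysine, and Slc36 and some Slc38 proteins sit on lysosomes, where SLC38A9 reports arginine to the kinase complex mTORC1. Embryonic stem cells depend on glutamine, and mouse stem cells on threonine. When amino acids run short, the transcription factor ATF4 binds a composite element with C/EBP proteins and raises many of these genes, Slc7a11 among them.

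Promoters are shown for members that carry the ATF4 and C/EBP composite element and for the falling members Slc3a2 and Slc7a1, which do not carry it in these windows. Each window runs from 250 bases before to 50 bases after an annotated start (RefSeq, GRCm38.p6), is written 5′ to 3′ on the gene's strand, and matched 41 of the 59 members. The search used TGATGNAA (N is any base) on both strands, in which capitals mark a match. The Slc7a11 window is chr3:50443564-50443863 (minus strand), that of Slc1a4 chr11:20332664-20332963 (minus), that of Slc7a7 chr14:54417895-54418194 (minus), that of Slc3a2 chr19:8713848-8714147 (minus) and that of Slc7a1 chr5:148399855-148400154 (minus).
Slc7a11: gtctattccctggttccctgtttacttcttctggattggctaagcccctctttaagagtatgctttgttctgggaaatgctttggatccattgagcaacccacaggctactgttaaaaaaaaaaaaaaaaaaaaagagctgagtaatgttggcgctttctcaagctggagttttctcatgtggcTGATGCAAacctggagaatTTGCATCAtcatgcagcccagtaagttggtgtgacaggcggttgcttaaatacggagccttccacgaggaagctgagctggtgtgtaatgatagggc
Slc1a4: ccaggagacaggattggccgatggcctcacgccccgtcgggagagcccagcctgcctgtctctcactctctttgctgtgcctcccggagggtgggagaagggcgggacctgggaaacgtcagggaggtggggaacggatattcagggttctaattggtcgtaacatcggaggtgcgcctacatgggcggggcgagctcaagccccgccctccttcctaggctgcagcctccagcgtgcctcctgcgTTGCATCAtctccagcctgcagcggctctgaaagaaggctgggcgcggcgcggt
Slc7a7: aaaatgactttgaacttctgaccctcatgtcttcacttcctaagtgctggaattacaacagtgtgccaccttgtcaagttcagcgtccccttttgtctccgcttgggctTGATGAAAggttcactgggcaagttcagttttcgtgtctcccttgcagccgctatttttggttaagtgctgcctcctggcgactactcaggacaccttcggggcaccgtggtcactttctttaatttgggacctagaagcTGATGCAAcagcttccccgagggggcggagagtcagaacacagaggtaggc
Slc3a2: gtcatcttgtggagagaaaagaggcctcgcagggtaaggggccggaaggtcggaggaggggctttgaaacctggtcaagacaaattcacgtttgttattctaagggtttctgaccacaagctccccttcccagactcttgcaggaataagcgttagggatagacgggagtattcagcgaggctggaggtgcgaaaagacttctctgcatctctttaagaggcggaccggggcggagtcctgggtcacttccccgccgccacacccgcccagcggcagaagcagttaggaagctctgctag
Slc7a1: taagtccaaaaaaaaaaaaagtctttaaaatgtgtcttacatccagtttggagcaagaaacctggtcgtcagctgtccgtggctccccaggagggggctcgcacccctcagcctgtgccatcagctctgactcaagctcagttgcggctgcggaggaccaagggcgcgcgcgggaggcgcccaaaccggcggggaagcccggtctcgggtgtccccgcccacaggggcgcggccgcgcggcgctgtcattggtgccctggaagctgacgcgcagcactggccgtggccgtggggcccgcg
Slc7a11 held 2 matches on opposite strands, at positions 185 and 204 of its window, Slc7a7 held 2 and Slc1a4 held 1. The element was found in 3 of 41 members (7.32%) and in 4.51% of the 27025 genes with a window. The MYC-type E-box CACGTG, which does not overlap these matches, was in 8 of 41 members (19.5%), against 8.09% of all genes. A gene with several windows counts if any of them matches, and the members had 62 windows. By window, the composite element was in 4 of 62 against 3.97% of all windows, and the E-box in 8 of 62 against 7.15%. Among the falling members with a window the composite element was in 1 of 9 and the E-box in 3 of 9. Among the rising members these counts were 1 of 8 and 2 of 8. A match is a string of letters, not a shown binding site. No window was given for Slc7a5 or Slc38a1.

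Total counts were 20107037 to 29267115 in the knockout libraries and 25044061 to 27785052 in wild type. The 59 members took 0.171% to 0.220% of the counts in the knockout and 0.224% to 0.238% in wild type. Sirt6 stood at 0.308 ± 0.0664 CPM in the knockout and 13.5 ± 0.690 CPM in wild type (SD, n = 3 each), where CPM is the count relative to a library total scaled by the trimmed mean of M values (TMM). Across all genes tested, 8345 of 14988 (55.7%) passed an adjusted p of 0.05 in edgeR's quasi-likelihood test, so that a call on a single gene is the commoner outcome. The 10 stem cell markers summed to 6593 to 8179 CPM in the knockout and 6279 to 6854 CPM in wild type. Of these 10, 3 rose (Sox2, Dppa5a and Tdgf1) and 4 fell (Pou5f1, Nanog, Utf1 and Sall4). Dppa5a alone held 1402, 2076 and 2683 CPM in the knockout libraries and 1126, 1252 and 1257 CPM in wild type. Pou5f1 went the other way, with means of 1199 CPM in the knockout and 1651 CPM in wild type. Marker lists of other cells moved with the genotype. The 12 endoderm markers summed to 33.7 to 53.1 CPM in the knockout and 246 to 279.7 CPM in wild type, with Ttr at 0 in both groups and Afp at 0 in the knockout. The 13 fibroblast markers summed to 71.4 to 74.7 CPM in the knockout and 25.3 to 25.8 CPM in wild type, with Lum at 0 in both groups and Postn at 0 in wild type. Sums of the 10 trophectoderm markers were 116 to 126 CPM in the knockout and 74.3 to 77.1 CPM in wild type, and those of the 8 neural markers 152 to 167 CPM and 96.0 to 101 CPM in the same order. These sums hide members that fell: Tead4 had 7.54 CPM in the knockout and 29.0 CPM in wild type, Pax6 0.914 CPM in the knockout and 6.55 CPM in wild type, and Sox1 4.36 CPM in the knockout and 16.2 CPM in wild type. Tubb3 alone made up 126 CPM of the neural sum in the knockout and 59.3 CPM in wild type. Lama1 alone made up 35.3 CPM of the endoderm sum in the knockout and 214 CPM in wild type. In the fibroblast sum, Fbln1 and Tagln held 30.0 and 21.7 CPM in the knockout and 16.3 and 2.21 CPM in wild type. In the trophectoderm sum, Krt8, Krt18 and Tfap2c held 39.5, 26.5 and 39.7 CPM in the knockout and 21.2, 5.43 and 18.3 CPM in wild type. Cdx2, Elf5, Gata3 and Hand1 had too few counts to test. The part of these cells in the transporter results was not tested, and in bulk RNA a change in the number of cells of a type cannot be told apart from a change in RNA per cell.

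Amino acid transporters went in both directions in the knockout. Among abundant members, the leucine, arginine and glutamine carriers Slc7a5, Slc7a1 and Slc38a1 and the heavy chain Slc3a2 fell 2.01- to 2.85-fold. The abundant carriers Slc38a4, Slc38a2 and Slc7a3 did not pass the test. A set of low-abundance members rose (Slc38a3, Slc36a4, Slc43a3, Slc7a8 and Slc1a6), together with the lysosomal arginine sensor Slc38a9. Of these, Slc7a8 and Slc1a6 passed the filter on low counts only through their knockout libraries. Of the 44 members with enough counts to test, 10 rose and 16 fell, 26 in all (59.1%), against 27.9% of all genes tested that rose and 27.8% that fell, so the share called lies near the background of 55.7%. The balance of directions depended on the scaling, the filter and the libraries used. With total counts 14 members rose and 12 fell, and without a filter on low counts 14 rose and 16 fell, of 58 then tested. Without wild-type replicate 1, 12 rose and 12 fell. Of the calls on all genes, 62.3% were higher with total counts, against 50.1% with TMM, so that shift was not particular to the members. The share was 51.3% without the filter and 52% without wild-type replicate 1. Past a log2 fold change of 1 in either direction, 8 rose and 6 fell (14 of 44, 31.8%), against 21.6% of all genes (12.6% higher and 9% lower). The median log2 fold change was -0.02 over the members tested and 0.01 over all genes tested. The count of 8 includes Slc1a6, Slc6a13, Slc6a19 and Slc7a8, which could be tested only through their knockout libraries. For such low-count members the filter favours a large rise, so the 31.8% is not read as an excess over all genes. Of the 44, 37 exceeded the count limit (0.383 CPM) in all 6 libraries, and of these 6 rose and 16 fell (59.5% called). Of the 13431 genes that did so, 3402 rose and 3871 fell (54.2%). Slc1a2, Slc1a6, Slc6a13, Slc6a17, Slc6a19, Slc7a8 and Slc7a9 did not. The groups did not overlap in 29 of 44 members (65.9%), against 63.2% of all genes.

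**Figure D1:**
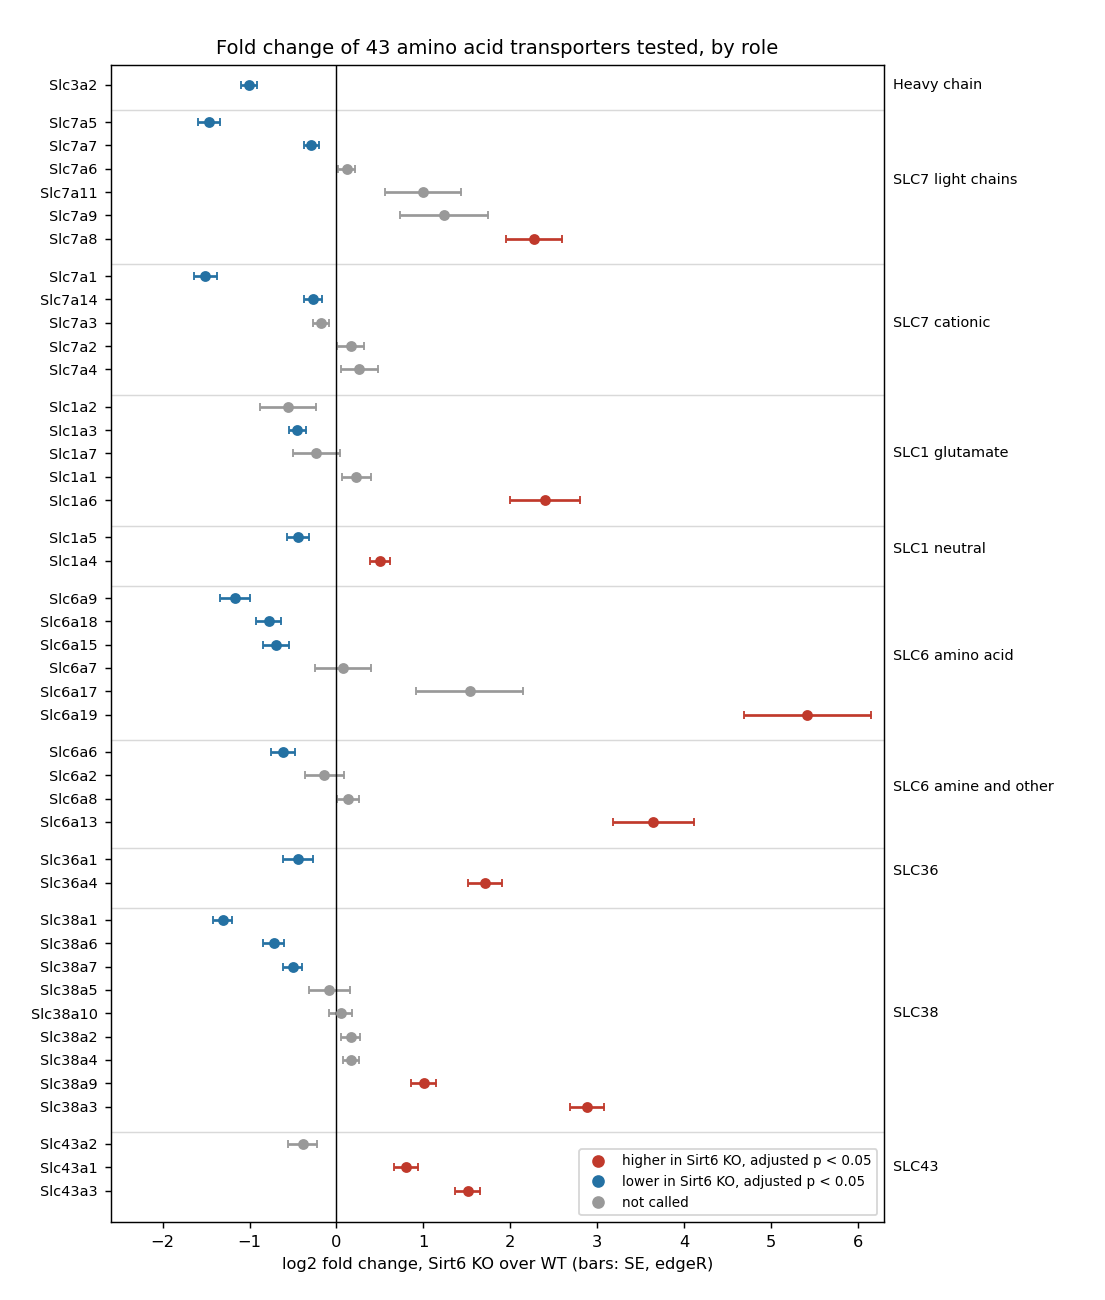
Log2 fold change of Sirt6 knockout over wild type for 43 of the amino acid transporters tested, grouped by role, with edgeR standard errors (3 libraries a group). Red points rose, blue points fell and grey points did not pass an adjusted p of 0.05; Slc6a19, with 1 wild-type count, lies farthest right at a fitted value that depends on a prior count.

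Scaling by total counts in place of TMM raised the median of all genes to 0.13. Under each alternative that gave them a value, 15 in all, 22 of the 26 called members held their call with the same sign. Calls on Slc7a14, Slc7a7, Slc1a5 and Slc36a1 did not.

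The heavy chain Slc3a2 fell 2.01-fold. It measured 86.6, 83.5 and 91.6 CPM in the knockout libraries, against 176, 179 and 172 CPM in wild type, a log2 fold change of -1.01 ± 0.09 (SE, adjusted p = 5.51e-06, edgeR). Every knockout library lay far below every wild-type library. The renal heavy chain gene Slc3a1 had at most 15 counts in any library and was not tested.

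Among light chains, Slc7a5, the leucine exchanger that pairs with SLC3A2, fell most. Knockout libraries had 95.1, 74.5 and 67.7 CPM and wild-type libraries 225, 226 and 206 CPM, a 2.77-fold fall (log2 fold change -1.47 ± 0.13, adjusted p = 5.07e-06, edgeR). Slc7a5 lies on chromosome 8, where the 787 genes tested had a median log2 fold change of -0.24. Slc7a6, also on chromosome 8, encodes an exchanger of arginine for neutral amino acids and did not pass: it had 73.0, 64.5 and 62.3 CPM in the knockout and 63.8, 62.6 and 57.6 CPM in wild type (0.12 ± 0.10, adjusted p = 0.331). The 2 genotypes overlapped for Slc7a6 and were far apart for Slc7a5. Slc7a7, whose protein has the same exchange activity, had 86.5, 81.7 and 86.4 CPM in the knockout and 104, 105 and 102 CPM in wild type (-0.29 ± 0.09, adjusted p = 0.0158). That call ended with total counts (adjusted p = 0.191) and without knockout replicate 2 (0.0644), wild-type replicate 1 (0.0820) or wild-type replicate 2 (0.0745), and its exons overlap those of Oxa1l on the other strand, whose reads may be shared since no source used here names a strand setting for the counting.

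Slc7a8, an exchanger of small and large neutral amino acids, rose from a low base and could be tested only through its knockout libraries. It had 67, 39 and 23 counts in the knockout (2.11, 1.60 and 1.15 CPM), against 8, 9 and 9 counts in wild type (0.298, 0.377 and 0.348 CPM), and the log2 fold change was 2.27 ± 0.32 (adjusted p = 0.000130, edgeR). The cystine exchanger Slc7a11, whose promoter carries the paired composite element shown above, did not pass the test. It had 64, 155 and 35 counts in the knockout, or 2.02, 6.35 and 1.75 CPM, against 41, 47 and 41 counts in wild type, or 1.53, 1.97 and 1.58 CPM. Knockout replicate 2 stood alone above the rest, and the log2 fold change of 0.995 ± 0.44 (adjusted p = 0.0736) was 0.17 without it, whereas it was 1.31 (adjusted p = 0.00859) without knockout replicate 1 and 1.25 (0.0254) without knockout replicate 3. In the authors' deposited table, Slc7a11 had a log2 fold change of 0.89 and an adjusted p of 0.0337. The kidney light chain Slc7a9 was at 1.24 ± 0.51 (adjusted p = 0.0594) and was called without knockout replicate 1 (0.0246) or wild-type replicate 1 (0.0230). Slc7a10, Slc7a13 and Slc7a15 had at most 24, 9 and 2 counts per genotype, and Slc7a12 had 0 counts in all 6 libraries.

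The makeup of the light chain pool shifted with these changes. Per kilobase of exon, which allows genes to be compared, Slc7a5 made up 33.5%, 29.8% and 27.7% of the summed light chain level in the knockout libraries and 52.8%, 53.0% and 51.8% in wild type. Slc7a7 took 43.9% ± 3.26 in the knockout and 33.2% ± 0.838 in wild type, and Slc7a6 24.1% ± 0.147 and 13.8% ± 0.211 (SD, n = 3 each). Each of these 3 shares separated the genotypes in every library, with an exact two-sided permutation p of 0.1, the smallest that 3 against 3 libraries can give. Shares within a group add up to the whole, so the fall of Slc7a5 raises the shares of the others by itself. The larger shares of Slc7a7 and Slc7a6 are not separate rises: Slc7a7 was called lower and Slc7a6 was not called. The summed light chains stood at 2.56 ± 0.263 times the Slc3a2 level in the knockout and at 2.04 ± 0.0523 times in wild type.

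**Figure D2:**
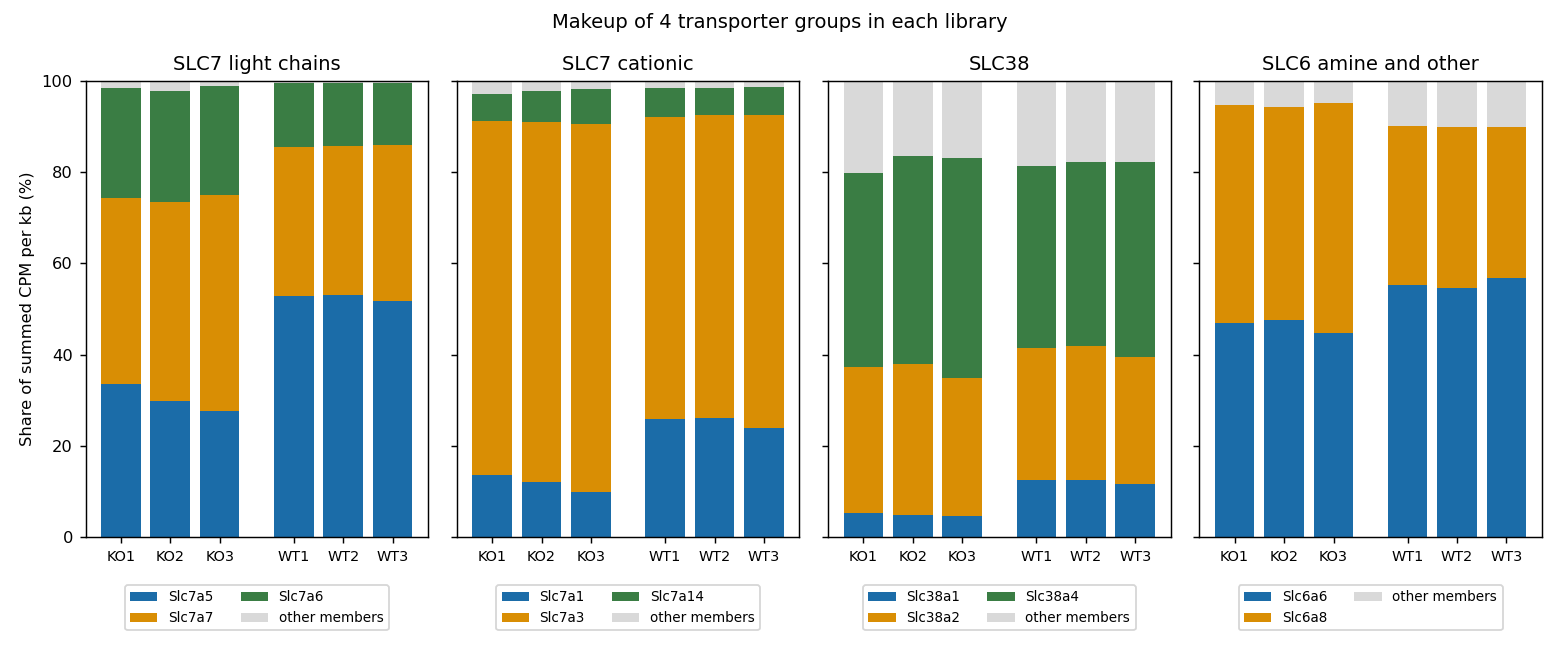
Share of each named member in the summed CPM per kilobase of its group, one bar for each library (KO, Sirt6 knockout; WT, wild type). Slc7a5 takes 27.7% to 33.5% of the light chain bars in the knockout and 51.8% to 53.0% in wild type, and Slc7a1 and Slc38a1 also take smaller slices in the knockout.

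Of the cationic carriers, Slc7a1, the widely expressed arginine and lysine carrier, fell 2.85-fold. Its levels were 69.5, 57.2 and 48.2 CPM in the knockout and 172, 173 and 154 CPM in wild type (log2 fold change -1.51 ± 0.13, adjusted p = 4.88e-06, edgeR). Slc7a3, the carrier of the same substrates that was the most abundant cationic member per length, had 159, 153 and 161 CPM in the knockout and 177, 178 and 181 CPM in wild type. These did not overlap, yet the difference of -0.18 ± 0.09 missed the threshold (adjusted p = 0.103). It was called without knockout replicate 3 (-0.22, adjusted p = 0.0389) and with the length and GC trend removed (-0.22, adjusted p = 0.00296). Slc7a3 lies on the X chromosome, where the median of 539 genes tested was 0.20. The share of Slc7a1 in the cationic group was 11.8% ± 1.96 in the knockout and 25.3% ± 1.32 in wild type, that of Slc7a3 79.1% ± 1.63 and 67.1% ± 1.45 in the same order (exact two-sided permutation p = 0.1 for each, n = 3 each). The Slc7a3 share was larger in the knockout though its own level was not higher, since shares within a group add up to the whole.

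Slc7a14, a lysosomal member of the cationic branch, sat at the threshold. It had 41.3, 44.1 and 51.6 CPM in the knockout and 57.0, 53.9 and 54.0 CPM in wild type, a log2 fold change of -0.27 ± 0.11 (adjusted p = 0.0493). The call was lost under 11 of 15 alternatives, among them all 3 that omit a wild-type replicate (adjusted p = 0.182, 0.109 and 0.101) and those without knockout replicate 1 (0.0655) or 2 (0.147), and the value was -0.01 after trends on GC content and transcript length were removed within libraries. Slc7a2, which is induced in activated macrophages, and the orphan Slc7a4 were not called, at 0.16 and 0.26.

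In the Slc1 family the 2 neutral amino acid exchangers went opposite ways. Slc1a4, a carrier of serine, alanine and cysteine whose promoter holds 1 composite element, rose to 43.1, 34.9 and 33.5 CPM in the knockout, against 25.3, 27.5 and 26.0 CPM in wild type (log2 fold change 0.50 ± 0.12, adjusted p = 0.00345, edgeR). Slc1a5, the glutamine exchanger, fell to 62.2, 48.9 and 42.9 CPM in the knockout, against 71.1, 69.5 and 68.6 CPM in wild type (-0.44 ± 0.13, adjusted p = 0.0137). Every knockout library was above wild type for the first and below it for the second. The Slc1a5 call ended with total counts (adjusted p = 0.0973) and without knockout replicate 2 (0.0653) or wild-type replicate 1 (0.0509). Slc1a4 made up 33.9% ± 1.40 of the pair per length in the knockout and 21.0% ± 0.862 in wild type (exact two-sided permutation p = 0.1, n = 3 each).

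The high-affinity glutamate carriers were expressed at lower levels. Slc1a3, known from astrocytes, fell to 17.3 ± 0.619 CPM in the knockout, against 23.7 ± 1.11 CPM in wild type (SD, n = 3 each; -0.45 ± 0.10, adjusted p = 0.00250, edgeR). Slc1a6, known from Purkinje cells, rose with 43, 36 and 23 counts in the knockout (1.35, 1.47 and 1.15 CPM), against 6, 11 and 2 counts in wild type (0.224, 0.460 and 0.0773 CPM). Its log2 fold change was 2.40 ± 0.40 (adjusted p = 0.000472), with no overlap between genotypes but few counts behind the wild-type level. Without its knockout libraries Slc1a6 would not have passed the filter on low counts. Slc1a1, Slc1a2 and Slc1a7 were not called, at 0.23, -0.56 and -0.23.

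The Slc38 family held the 2 most abundant members of the knockout per length. Slc38a1, a sodium-coupled glutamine carrier, fell 2.48-fold, to 102, 93.4 and 80.4 CPM in the knockout, against 235, 234 and 217 CPM in wild type (log2 fold change -1.31 ± 0.11, adjusted p = 3.58e-06, edgeR). Its close relative Slc38a2, the carrier best known for being induced by amino acid starvation, had 275, 279 and 231 CPM in the knockout and 238, 239.9 and 224 CPM in wild type. Slc38a4, an imprinted gene for a carrier of neutral and cationic amino acids, had 323, 342 and 326 CPM in the knockout and 289.8, 291 and 305 CPM in wild type. Neither passed: Slc38a2 was at 0.16 ± 0.10 (adjusted p = 0.209) with overlapping libraries, and Slc38a4 at 0.16 ± 0.09 (0.155) without overlap. Slc38a2 was called without knockout replicate 3 (0.22, adjusted p = 0.0467). Slc38a4 was called with total counts (0.29, adjusted p = 0.0342). Slc38a1, Slc38a2 and Slc38a4 lie on chromosome 15, where the median of 573 genes tested was 0.07. Slc38a1 took 4.85% ± 0.309 of the summed family level per length in the knockout and 12.2% ± 0.461 in wild type (exact two-sided permutation p = 0.1, n = 3 each).

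Slc38a3, a glutamine carrier of liver, kidney and astrocytes, showed the largest fold change of the members tested after Slc6a19 and Slc6a13. It had 8.25, 6.92 and 7.46 CPM in the knockout and 0.708, 1.17 and 1.20 CPM in wild type, 7.38-fold higher (log2 fold change 2.88 ± 0.20, adjusted p = 9.62e-07, edgeR). Slc38a9, the lysosomal arginine sensor, rose 2.01-fold, with 32.1, 29.9 and 22.6 CPM in the knockout and 15.5, 13.9 and 12.9 CPM in wild type (1.004 ± 0.14, adjusted p = 0.000133). Neither gene's libraries overlapped between genotypes. Slc38a7, a lysosomal glutamine and asparagine exporter on chromosome 8, fell to 28.0 ± 3.81 CPM in the knockout, against 39.8 ± 1.75 CPM in wild type (-0.50 ± 0.11, adjusted p = 0.00307). Slc38a6 fell by 0.72 ± 0.12 on the log2 scale (adjusted p = 0.000429). Slc38a10 had 107, 78.7 and 74.4 CPM in the knockout and 87.4, 81.7 and 82.5 CPM in wild type, with overlap, and was not called (0.05 ± 0.13, adjusted p = 0.775). It was called with the length and GC trend removed (0.20, adjusted p = 0.0119). Slc38a5 was not called, at -0.09. Slc38a11 had 0 counts in wild type and 5, 11 and 1 counts in the knockout, so that the knockout was at least 5.70-fold higher if wild type is set to 3 counts in all, and it was below the filter, as was Slc38a8.

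**Figure D3:**
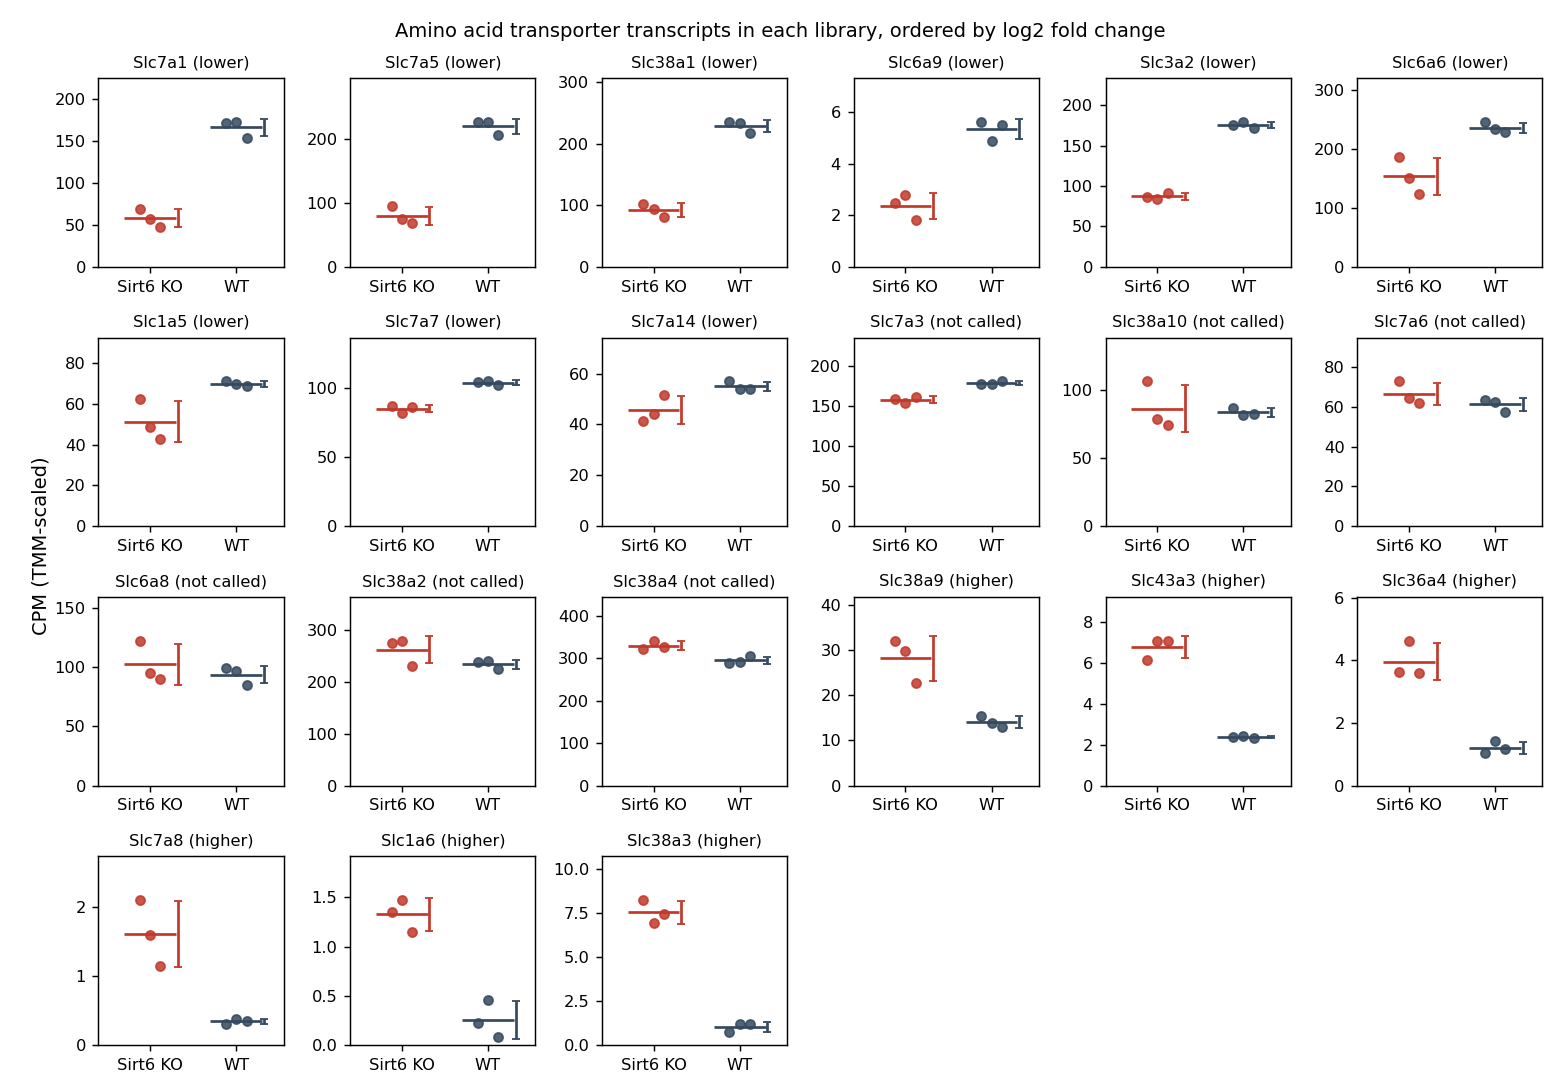
CPM (linear axis from 0) of 21 members given with values in every library, one panel each, with Sirt6 knockout points left of wild-type points; horizontal lines are means and bars SDs of 3 libraries. Panels run from the most negative to the most positive log2 fold change, from Slc7a1 (-1.51) to Slc38a3 (2.88).

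Slc6 members that carry amines and osmolytes included the taurine carrier Slc6a6 and the creatine carrier Slc6a8, both abundant. Slc6a6 fell to 187, 150.4 and 124 CPM in the knockout, against 246, 233 and 229 CPM in wild type (log2 fold change -0.62 ± 0.14, adjusted p = 0.00296, edgeR). For Slc6a8, on the X chromosome, the levels of 122, 94.7 and 89.8 CPM in the knockout and 99.3, 96.4 and 85.3 CPM in wild type overlapped, and it was not called (0.13 ± 0.13, adjusted p = 0.414). With the length and GC trend removed it was called (0.19, adjusted p = 0.0199).

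The GABA carriers Slc6a13 and Slc6a11 had few counts in wild type. Slc6a13 had 31, 23 and 13 counts in the knockout and 1, 1 and 3 counts in wild type, and it rose (3.64 ± 0.47, adjusted p = 7.11e-05, edgeR). Only its knockout libraries brought Slc6a13 past the filter on low counts. Slc6a11 had 24, 7 and 7 counts in the knockout and 1 count over the wild-type libraries, which gives a ratio of 38.2 (exact 95% interval for counting error 6.46 to 1549), and was below the filter. In the authors' deposited table, Slc6a11 had an adjusted p of 7.31e-05 and Slc38a11 one of 0.00726. Slc6a6, Slc6a11 and Slc6a13 lie on chromosome 6, where the median of 702 genes tested was 0.06. The noradrenaline carrier Slc6a2 was not called (-0.14), and the dopamine, serotonin and betaine carriers Slc6a3, Slc6a4 and Slc6a12 were below the filter.

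Of the Slc6 carriers of amino acids, Slc6a9, Slc6a15 and Slc6a18 fell and Slc6a19 rose. The glycine carrier Slc6a9 had 2.49, 2.78 and 1.80 CPM in the knockout and 5.63, 4.90 and 5.52 CPM in wild type, 2.24-fold lower and without overlap (log2 fold change -1.17 ± 0.18, adjusted p = 0.000216, edgeR). Its exons overlap those of Ccdc24 on the other strand. The branched-chain amino acid and proline carrier Slc6a15 fell by 0.69 ± 0.15 and the renal carrier Slc6a18 by 0.78 ± 0.14 on the log2 scale (adjusted p = 0.00232 and 0.000880). Slc6a19, the main neutral amino acid carrier of gut and kidney on chromosome 13 like Slc6a18, rose: it had 33, 14 and 12 counts in the knockout and 0, 1 and 0 counts in wild type (adjusted p = 0.000102). Its ratio was 59.4 (exact 95% interval for counting error 10.2 to 2384). Like Slc6a13, it passed the filter only through its knockout libraries. Slc6a17, a vesicular carrier, had 16, 13 and 9 counts in the knockout and 11, 1 and 1 counts in wild type. It was at 1.53 ± 0.62 (adjusted p = 0.0548), and at 3.49 (0.00143) without wild-type replicate 1, the library with 11 counts. The proline carrier Slc6a7 was not called (0.08), and Slc6a5 and Slc6a14 were below the filter.

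Of the proton-coupled Slc36 family, Slc36a4, a high-affinity carrier of proline and tryptophan, rose 3.27-fold. It had 3.62, 4.63 and 3.60 CPM in the knockout and 1.04, 1.42 and 1.16 CPM in wild type (log2 fold change 1.71 ± 0.20, adjusted p = 3.61e-05, edgeR). The lysosomal carrier Slc36a1 had 9.19 ± 2.46 CPM in the knockout and 12.7 ± 1.01 CPM in wild type, with overlap, and was called lower (-0.45 ± 0.17, adjusted p = 0.0465). That call ended with total counts (adjusted p = 0.176), when genes averaging under 1 CPM were dropped (0.0617), and without wild-type replicate 1, 2 or 3 (0.119, 0.120 and 0.0559) or knockout replicate 2 or 3 (0.155 and 0.0769), and the value was -0.68 without knockout replicate 1. Slc36a2 and Slc36a3 were below the filter.

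In the Slc43 family Slc43a3, now known as a purine nucleobase carrier, rose 2.84-fold. It had 6.17, 7.08 and 7.11 CPM in the knockout and 2.39, 2.43 and 2.32 CPM in wild type (log2 fold change 1.51 ± 0.14, adjusted p = 8.68e-06, edgeR). Slc43a1, a sodium-independent carrier of large neutral amino acids, rose to 6.60 ± 0.456 CPM in the knockout, against 3.81 ± 0.314 CPM in wild type (0.79 ± 0.14, adjusted p = 0.000564). Slc43a2, which carries the same substrates, was at -0.39 ± 0.17 (adjusted p = 0.0688) and was called without knockout replicate 1 (-0.59, adjusted p = 0.00162). Its exons overlap a transcript on the other strand, as do those of Slc1a1, Slc1a2, Slc7a2 and Slc38a10, so their counts may hold reads of both.

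Compared per kilobase of exon, levels spanned from 0 to 80.2 CPM per kb in the knockout. Slc38a4 led with 80.2 ± 2.45 CPM per kb in the knockout and 71.6 ± 2.11 CPM per kb in wild type. In the knockout, Slc38a2 (56.2 ± 5.73 CPM per kb) and Slc7a3 (54.2 ± 1.39) followed, within their spread of each other, and then Slc7a7 (32.3 ± 1.03). In wild type, Slc7a5 (62.3 ± 3.21 CPM per kb), Slc7a3 (61.4 ± 0.644) and Slc3a2 (58.1 ± 1.16) followed Slc38a4, with Slc7a5 and Slc7a3 not apart beyond their spread. Slc7a5 ranked 8 among the members in the knockout, at 22.5 ± 4.06 CPM per kb, and 2 in wild type. Summed over the 59 members the level was 481, 443 and 419 CPM per kb in the knockout libraries and 572, 569 and 549.8 CPM per kb in wild type, every knockout library lying lower. Light chains summed to 73.7 ± 6.09 CPM per kb in the knockout and 119 ± 4.77 in wild type. Heavy chains summed to 29.0 ± 1.32 CPM per kb in the knockout and 58.3 ± 1.25 in wild type, and cationic carriers to 68.6 ± 2.003 in the knockout and 91.5 ± 1.001 in wild type. The Slc38 family summed to 176 ± 11.0 CPM per kb in the knockout and 175 ± 1.48 in wild type.

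**Figure D4:**
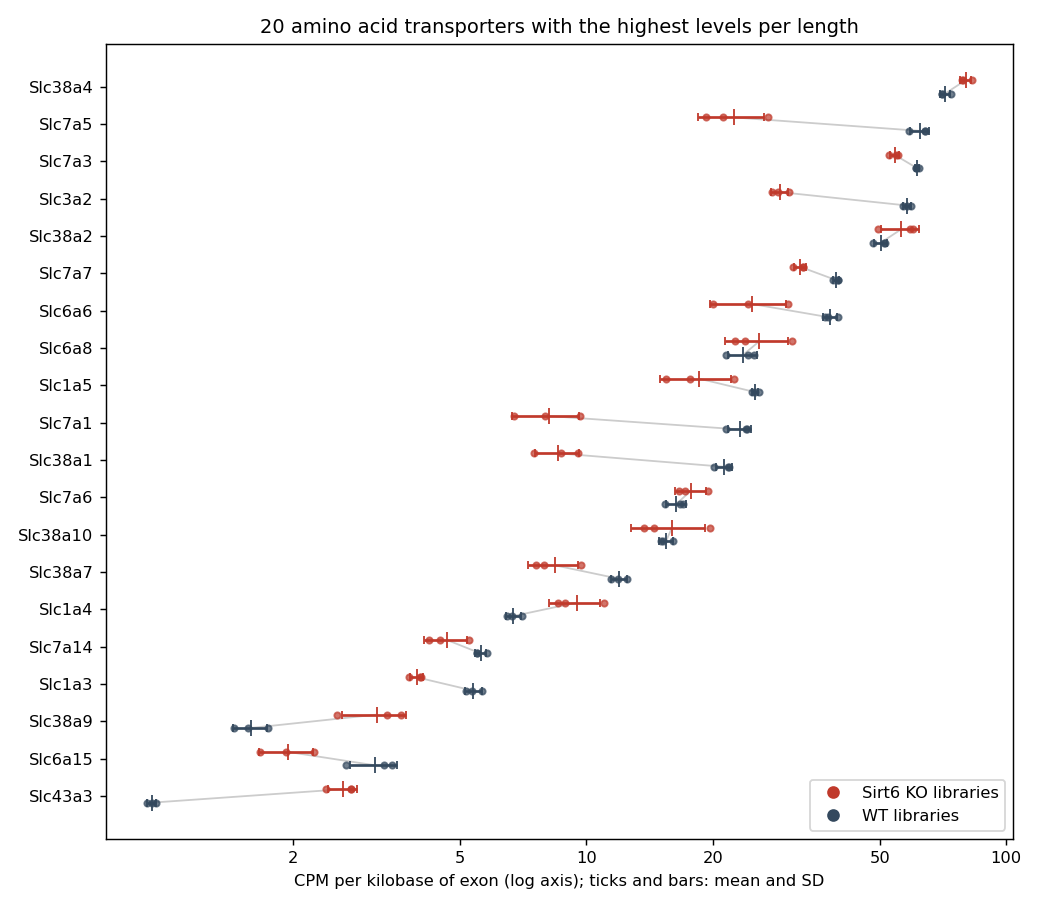
CPM per kilobase of exon (log axis) for 20 members with the highest levels in either genotype, with Sirt6 knockout libraries drawn above wild-type libraries for each gene; ticks and bars are means and SDs of 3 libraries. Slc7a5 lies at 22.5 CPM per kb in the knockout and 62.3 in wild type, while Slc38a4 lies at 80.2 and 71.6.

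Genes that sense amino acids moved in both directions. Of 35 genes of the mTORC1 amino acid sensing pathway, all tested, 9 rose and 9 fell (51.4%, against 55.7% of all genes), and their median was 0.12. The leucine sensor Sesn2 fell by 0.40 ± 0.12 on the log2 scale (adjusted p = 0.0147, edgeR), and its relatives Sesn1 and Sesn3 rose, Sesn1 to 66.2 ± 5.86 CPM in the knockout against 25.03 ± 0.545 CPM in wild type (1.40 ± 0.10, adjusted p = 1.21e-06, edgeR) and Sesn3 by 1.25 ± 0.12. Fnip1, a partner of folliculin, rose to 120.1 ± 14.2 CPM in the knockout against 51.8 ± 1.35 CPM in wild type (1.21 ± 0.11). The Rag GTPase gene Rraga fell to 11.0 ± 2.80 CPM in the knockout against 30.8 ± 2.52 CPM in wild type (-1.50 ± 0.16). The count of rises was 15 both with total counts and after the length and GC trend was removed, and 5 without wild-type replicate 1.

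Of 18 genes of the ATF4 amino acid response, all tested, 2 rose and 10 fell (66.7% called, against 55.7% of all genes, of which 27.9% rose and 27.8% fell). Their median log2 fold change was -0.39. Sesn2 belongs to this list as well as to the sensing list and is counted among the falls of both. Atf4 itself fell to 131 ± 17.2 CPM in the knockout, against 301 ± 11.1 CPM in wild type (-1.21 ± 0.11, adjusted p = 7.46e-06, edgeR). Ppp1r15b, a phosphatase subunit that resets the response, fell to 97.8 ± 14.1 CPM in the knockout against 254 ± 12.2 CPM in wild type (-1.38 ± 0.12), and the ATF4 targets Trib3 and Atf5 fell by 1.02 ± 0.12 and 0.98 ± 0.15 on the log2 scale. The genes that rose were Ddit3, by 0.84 ± 0.16 (adjusted p = 0.000924, edgeR), and Cebpb, by 0.72 ± 0.15 (adjusted p = 0.00190). Asns was not called (-0.13 ± 0.09, adjusted p = 0.260). With total counts 4 rose and 8 fell, and after removal of the length and GC trend there were 6 rises and 11 falls.

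Among other carriers of amino acids and peptides, 6 of 14 tested genes rose and 5 fell (78.6%, against 55.7% of all genes), with a median of -0.03. Slc16a10, which exports aromatic amino acids, rose to 15.1 ± 1.999 CPM in the knockout, against 2.42 ± 0.128 CPM in wild type (log2 fold change 2.64 ± 0.15, adjusted p = 2.56e-07, edgeR). The peptide carrier Slc15a1 fell to 13.7 ± 1.03 CPM in the knockout against 73.3 ± 3.02 CPM in wild type (-2.42 ± 0.10, adjusted p = 7.44e-08). The vesicular glutamate carrier Slc17a7 rose by 2.42 ± 0.18 and the lysosomal cystine exporter Ctns by 0.87 ± 0.10. The 5 falls were 3 with total counts, 3 when genes averaging under 1 CPM were dropped, and 2 without knockout replicate 2 or wild-type replicate 1.

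All 7 genes listed for the placing of transporters at the membrane passed the test, against 55.7% of all genes, 4 higher and 3 lower, with a median of 0.26. Txnip, an arrestin-family protein that draws transporters inside the cell, rose to 303 ± 39.8 CPM in the knockout, against 115 ± 2.22 CPM in wild type (log2 fold change 1.40 ± 0.11, adjusted p = 2.79e-06, edgeR). The ubiquitin ligase gene Nedd4l fell to 16.5 ± 1.11 CPM in the knockout against 37.6 ± 1.08 CPM in wild type (-1.18 ± 0.10). Bsg, a chaperone of lactate carriers, rose by 0.87 ± 0.11, and Cd44, which binds SLC7A11 in human cells, rose to 1.79 ± 0.113 CPM in the knockout, against 0.0682 ± 0.0879 CPM in wild type. Cd44 was not tested when genes averaging under 1 CPM were dropped, which left 3 rises.

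**Figure D5:**
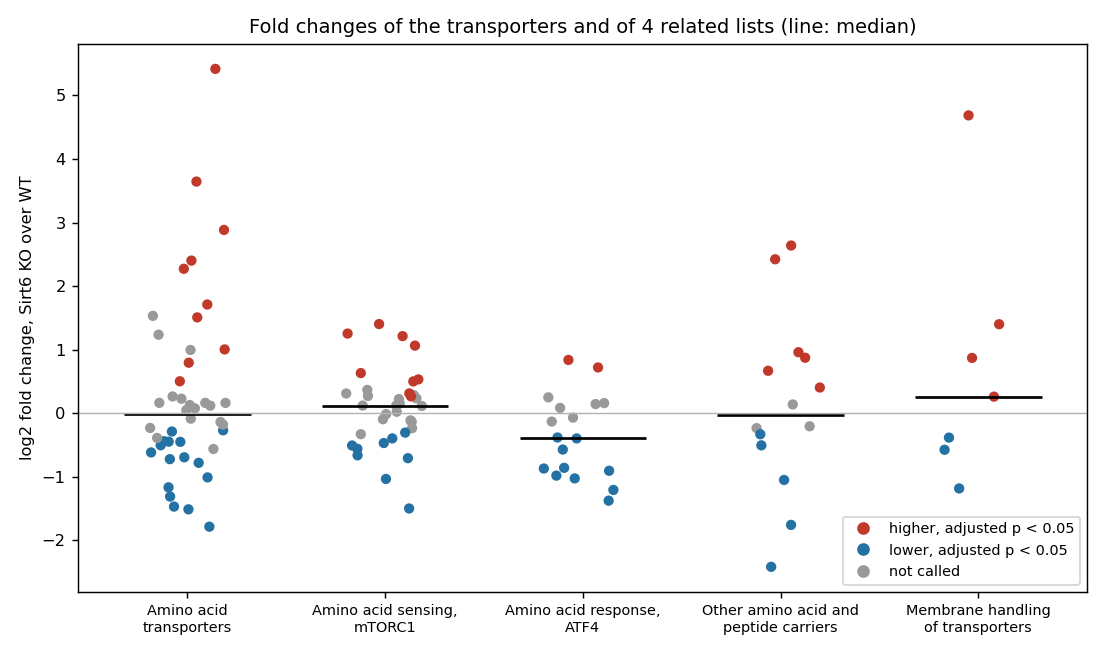
Log2 fold change of Sirt6 knockout over wild type for the 44 amino acid transporters tested and for 4 related gene lists; each point is a gene and each black line a median. Medians are -0.02 for the transporters, 0.12 for amino acid sensing, -0.39 for the ATF4 response, -0.03 for other carriers and 0.26 for membrane handling.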

How the data were processed

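Messenger RNA of 6 libraries was analysed, 3 Sirt6 knockout and 3 wild type, grouped by the labels. The authors deposited whole-number counts per gene symbol for each library. Per the submitters' processing notes, the build was mm9 and the tools included HTSeq 0.6.1, TopHat2 2.0.10 and DESeq2, with no roles given. Strand setting and annotation were not given in the sources used here. The authors also deposited a DESeq2 table, per the file headers, with a mean normalized signal, log2 fold changes, a test score (the Wald statistic) and p-values, from which log2 fold changes and adjusted p-values are quoted where named.

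From the counts, edgeR 4.0.16 (R 4.3.3) with TMM scaling, its filter on low counts and a quasi-likelihood test compared knockout with wild type over 14988 genes, with Benjamini-Hochberg adjustment over all of them. On simulated data it recovered 64% of 1.5-fold changes and 98% of 2-fold changes, and 3.72% of its calls fell on unchanged genes. Far fewer genes changed in the simulation than were called here, and 1 common spread was used for all genes. Gene lengths and chromosomes came from the GENCODE annotation of GRCm38, with all 59 members matched by symbol, and only the promoter windows carry coordinates. Levels per length divide CPM by the summed exon length, so they depend on which isoform is used. With 3 libraries a group, counting error is small for abundant members and large below about 1 CPM. Intervals and floors cover counting error only. Members called with a log2 fold change of at least 1 and at least 1 CPM in the higher group, called members reaching 50 CPM there and uncalled members reaching 20 CPM there were given in every library, and the others were named more briefly. The values of 1 member are not reported here, though it stays in the fits, counts, medians and sums. Up to 4 called genes per related list were named by smallest adjusted p, and Sesn2, Ddit3, Cebpb and Asns were named besides. Members and lists were chosen with earlier results of these data known. Alternatives covered scaling, filters, DESeq2 1.42.0, limma 3.58.1 (voom), the replicate number, transcript length and GC content, and leaving out each library.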

Additional observations from a re-analysis of the deposited data

How the results depend on the processing

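Of the 26 members called, 22 were called with the same sign under every one of the 15 alternatives that gave them a value, and Slc7a14, Slc36a1, Slc7a7 and Slc1a5 were not. Of the 18 not called, 9 passed under some alternative: Slc7a11, Slc7a9, Slc6a17, Slc43a2, Slc38a4, Slc38a2, Slc7a3, Slc38a10 and Slc6a8. No called member changed sign. With total counts, 62.3% of all calls were higher, against 50.1% with TMM, 14 members rose and 12 fell, against 10 and 16 with TMM, and the members' median turned to 0.11, against -0.02. The rises were then 15 in amino acid sensing and 4 in the ATF4 response, and 3 other carriers fell. When genes averaging under 1 CPM were dropped, which tests fewer genes, 5 members rose past a log2 fold change of 1, against 8, and 3 other carriers fell. With the length and GC trend removed, the members' median was 0.04, 14 members rose and 16 fell, and 15 sensing genes and 6 ATF4 response genes rose. Of all calls under that setting, 49% were higher. The cause of these shifts was not tested. The share of all genes called is not given beside the member counts in this section.

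Leaving out 1 library at a time gave 10 to 12 members higher and 12 to 16 lower, and a members' median of -0.16 to 0.0230, the lowest without knockout replicate 1 and above 0 without knockout replicate 2 or wild-type replicate 2. Rises in amino acid sensing numbered 5 to 13, and falls among other carriers 2 to 5. Depth limits the members below 1 CPM, where single libraries hold few counts.

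With the replicate number as a block, 13 members rose and 17 fell, and 26 of the 26 members called without it were called. Of all calls with the block, 49.9% were higher. Deviations of same-numbered libraries from their group mean correlated at 0.208, -0.025 and 0.201, against -0.216 to 0.0346 for libraries of different number. Replicates 1 and 3 thus went together by number, whereas knockout replicate 2 correlated best with wild-type replicate 3 (0.0346). Deviations within a group sum to 0, so these values cannot settle whether the numbers pair the libraries. The main fit did not pair them.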

Other observations

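In the authors' deposited table, which lists 58 of the 59 members, 13 members were higher and 15 lower at an adjusted p under 0.05. Of the 26 members called here, 25 were called there with the same sign and 0 with the opposite sign. The exception was Slc7a14, with an adjusted p of 0.0753 in the authors' deposited table. That table compares the same genotypes of this series, so the matching calls are not independent support. The share of all genes called in it is not given here.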
